A study of Mus musculus with 6 samples.

Results

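The genes described here are 10 scavenger and endocytic receptors known from macrophages at the borders of the brain: Mrc1, Cd163, Lyve1, Folr2, Stab1, Msr1, Marco, Cd36, Scarb1 and Cd209f. They are a named list, not picked by a threshold on these values but chosen with earlier results of these data known. They were looked up by Ensembl gene identifier among the 49585 genes listed in each library. The question put to them was which are gained in microglia lacking the transcription factor IRF8 and which stay absent. Of the 10 genes, 7 had at least 1 count in some library, 5 passed the filter on low counts and were tested, and 3 had no count in any of the 6 libraries.

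Microglia are the resident macrophages of the brain tissue. The macrophages of the meninges and of the spaces around blood vessels are a separate population and are known for scavenger receptors on their surface, which take up modified lipoproteins, glycoproteins and debris through endocytosis. Resting microglia are known to carry little of most of these receptors. IRF8 is a transcription factor of the myeloid lineage that binds DNA together with partners such as PU.1.

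RNA was sequenced from microglia of 3 wild-type (WT) and 3 Irf8 knockout (IRF8KO) mice, all male and 3 months old, with no treatment. Cells were freed from each brain with no enzyme step and sorted straight into TRIzol, so each library stands for a separate brain. The labels give neither the allele, its cell specificity nor the sorting markers. Libraries of polyadenylated RNA were made with SMART-Seq v4 and Nextera XT, a full-length protocol that keeps no strand information. Gene counts per library were 3658917 to 10859529 in WT and 8994860 to 11098363 in IRF8KO.

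Values below are counts, or CPM (counts scaled to a common library total) after trimmed-mean (TMM) scaling. A gene is called where the adjusted p of edgeR's quasi-likelihood test is under 0.05. The count of the targeted gene did not separate the groups: Irf8 had 4084, 12022 and 10179 counts in the WT libraries and 4628, 7243 and 7834 in those labelled IRF8KO. The groups overlapped in CPM, and the log2 fold change was -0.44 (SE 0.33, adjusted p = 0.368, edgeR). With library size alone it was -0.90 (adjusted p = 0.00763, edgeR), a call that none of the other alternatives gave. The labels do not give the deleted part of the gene, which such a count need not show, and every direction below rests on the labels. Of the markers of microglia, Csf1r (group means of 14991 and 22937 CPM in IRF8KO and WT), C1qb and C1qc were high in both groups, while 8 of 18 homeostatic microglia markers were lower and 1 was higher in IRF8KO. Apoe alone took 25.5% to 33.7% of the counts in IRF8KO and 0.154% to 0.324% in WT, which bears on scaling. WT replicate 3 stood apart from the other WT libraries: the chi-square per degree of freedom of its counts against theirs was 65.3 and 83.6, while that between WT replicates 1 and 2 was 8.57. IRF8KO replicate 2 stood apart by neutrophil and monocyte transcripts that were at or near 0 in the other libraries. In IRF8KO replicates 1, 2 and 3, S100a8 had 5, 1350 and 0 counts, Ngp had 0, 883 and 0, and the monocyte and macrophage gene Chil3 had 0, 386 and 0. Cd163, Mrc1 and Stab1 were called without that library too, with log2 fold changes of 3.22 for Mrc1 and 1.57 for Stab1 and edgeR adjusted p of 0.00194, 0.00113 and 0.0179 in the order named.

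Cd163, Mrc1 and Stab1 were higher in IRF8KO than in WT, and no other receptor of the 10 was called. Cd163, the scavenger receptor for haptoglobin-haemoglobin, went from no count in WT to 9.54 ± 2.61 CPM in IRF8KO (SD, n = 3). Mrc1, the mannose receptor CD206, rose 12.7-fold from 3.12 ± 0.543 to 39.3 ± 19.0 CPM. Stab1, a scavenger receptor of macrophages and sinusoidal endothelium, rose 2.82-fold from an already high 692 ± 116 to 1950 ± 310 CPM. Lyve1, Marco and Cd209f had no count in either group, Folr2 and Cd36 had at most 5 counts in a group, and Msr1 and Scarb1 were not called. Of all 11041 genes tested, 9.64% were called higher, 9.46% lower, and 19.1% in either direction. All IRF8KO libraries lay above all WT libraries for these 3 receptors, as was the case for 20% of all genes tested (37.9% did not overlap in either direction).

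**Figure D1:**
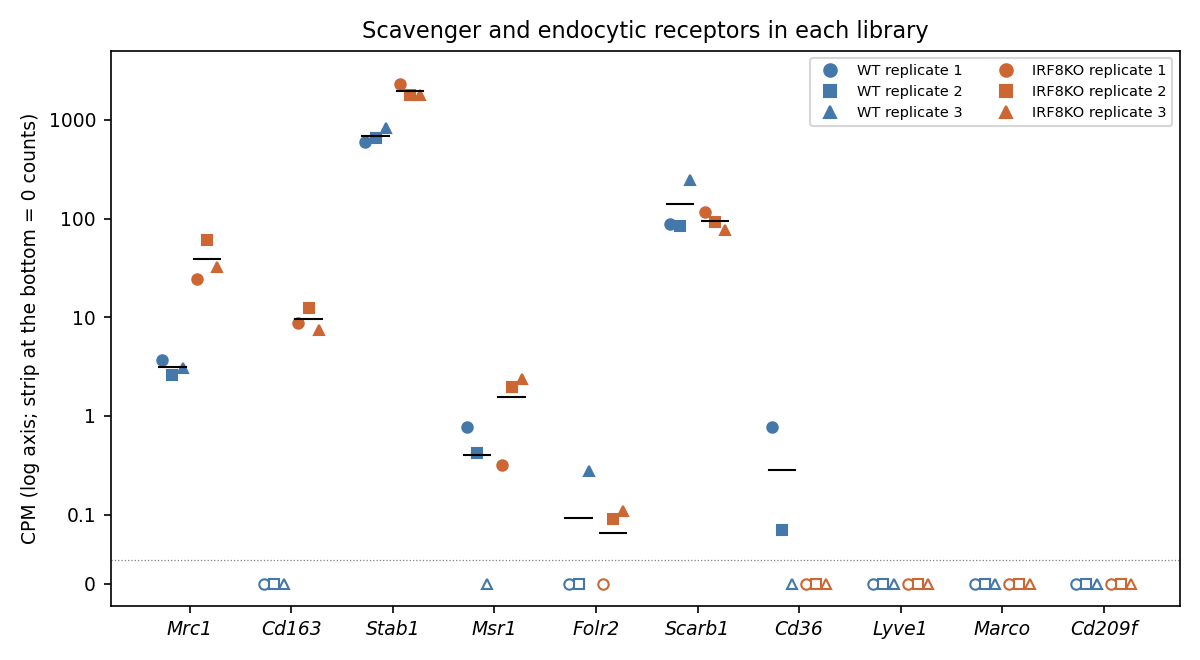
Level of each of the 10 receptors in CPM (y axis, log scale with 0 in a strip below) in every library, with the genes on the x axis, WT in blue, IRF8KO in orange and group means as black bars. The IRF8KO libraries of Mrc1, Cd163 and Stab1 lie above every WT library, the groups of Msr1 and Scarb1 overlap, and Lyve1, Marco and Cd209f lie at 0.

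Promoter sequence is shown for the 3 receptors that rose and, for contrast, for Marco, which had no count. The letters are the 250 bases before the RefSeq gene start on GRCm38.p6, written 5′ to 3′ on the strand of the gene. They lie at chr2:14229164-14229413 (plus strand) for Mrc1, chr6:124304401-124304650 (plus) for Cd163, chr14:31168642-31168891 (minus) for Stab1 and chr1:120505025-120505274 (minus) for Marco. Capitals mark a match to one of the motifs searched.
Mrc1: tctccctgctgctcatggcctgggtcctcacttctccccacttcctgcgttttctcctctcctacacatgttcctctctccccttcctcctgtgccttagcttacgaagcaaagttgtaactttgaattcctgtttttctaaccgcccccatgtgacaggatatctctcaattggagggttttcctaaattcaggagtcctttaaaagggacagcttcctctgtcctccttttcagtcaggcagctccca
Cd163: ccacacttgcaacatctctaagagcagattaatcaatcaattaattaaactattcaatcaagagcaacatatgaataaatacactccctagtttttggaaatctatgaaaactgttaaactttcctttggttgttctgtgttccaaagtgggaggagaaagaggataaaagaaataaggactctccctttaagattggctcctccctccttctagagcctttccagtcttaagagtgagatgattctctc
Stab1: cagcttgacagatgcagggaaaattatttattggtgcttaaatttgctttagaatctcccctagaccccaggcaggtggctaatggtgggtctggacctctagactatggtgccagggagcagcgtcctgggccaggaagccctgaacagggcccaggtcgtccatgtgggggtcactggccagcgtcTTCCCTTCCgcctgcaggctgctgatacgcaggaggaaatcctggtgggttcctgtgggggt
Marco: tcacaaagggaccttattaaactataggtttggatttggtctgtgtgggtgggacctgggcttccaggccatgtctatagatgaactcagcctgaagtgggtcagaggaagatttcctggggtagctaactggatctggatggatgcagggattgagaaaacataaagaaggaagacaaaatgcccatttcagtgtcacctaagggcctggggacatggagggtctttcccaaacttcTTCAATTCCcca
The motifs were searched on both strands in the window from 250 bases before to 50 after the start. The composite core of ETS and IRF factors, GGAANNGAA, is the kind of site where IRF8 binds with PU.1, and 8.24% of the 32851 RefSeq windows hold it. Stab1 had 1 match, on the opposite strand at -62 to -54 from the start. Marco also had 1, on the opposite strand at -12 to -4. Mrc1 and Cd163 had no match to any motif searched: neither that core, nor the interferon-stimulated response element core GAAANNGAA (8.56% of windows), the PU.1 core GAGGAAGT (3.20%), the AP-1 site TGANTCA (7.81%), the E-box CACGTG (7.15%) or the MAF core TGCTGAC (4.67%). GGAANNGAA and GAAANNGAA can share bases, and so can GAGGAAGT and GGAANNGAA. A receptor that rose and one with no count thus carried the same core, and a match is a description of letters, not a site in use. Among the other windows, Cd209f had 1 AP-1 match, Cd36 had none, and of the 2 windows of Folr2 one had an AP-1 match and the other an ETS-IRF core and a response element core. Windows were matched for 7 of the 10 genes, and those of Lyve1, Msr1 and Scarb1 were not used here.

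Mrc1 is an endocytic lectin that binds mannose-rich glycoproteins and is a standard marker of border macrophages. Its gene (ENSMUSG00000026712.3, GRCm38 chromosome 2, 14229392-14332057, plus strand) had 19, 37 and 22 counts in WT and 153, 677 and 300 in IRF8KO. In CPM these were 3.70, 2.62 and 3.03 against 24.6, 60.8 and 32.5. All 3 IRF8KO libraries lay above all WT libraries, and the lowest IRF8KO library was 6.64 times the highest WT library. The log2 fold change was 3.67 (SE 0.44, 95% interval 2.71 to 4.64, adjusted p = 0.000208, edgeR with Benjamini-Hochberg adjustment). The WT libraries thus held a low count of Mrc1, detected in each of the 3, and which cells of the sort carried it was not tested. IRF8KO replicate 2 was the highest, 2.47 times the lowest, IRF8KO replicate 1.

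Cd163 clears haptoglobin-haemoglobin complexes and is a marker of perivascular macrophages. The gene (ENSMUSG00000008845.9, chromosome 6, 124304656-124330527, plus strand) had 0 counts in every WT library and 54, 139 and 69 counts in IRF8KO. The IRF8KO levels were 8.67, 12.5 and 7.48 CPM, within 1.67 times of one another. With 3 counts as the limit that a count of 0 allows over the pooled WT libraries, Cd163 was at least 87.1-fold higher in IRF8KO (adjusted p = 0.000316, edgeR). It passed the filter on low counts only through the IRF8KO libraries, so its presence among tested genes already carried a difference. Intervals and limits of this kind cover counting error only.

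Stab1, stabilin-1, takes up acetylated lipoprotein and the matrix protein SPARC. Unlike Mrc1 and Cd163 it was abundant in the WT libraries. The gene (ENSMUSG00000042286.13, chromosome 14, 31139013-31168641, minus strand) had 3094, 9191 and 5970 counts in WT and 14379, 19691 and 16364 in IRF8KO. The levels were 602, 651 and 823 CPM in WT and 2308, 1767 and 1775 CPM in IRF8KO, and the groups did not overlap. The lowest IRF8KO library was 2.15 times the highest WT library. The log2 fold change was 1.49 (SE 0.31, 95% interval 0.81 to 2.18, adjusted p = 0.00665, edgeR). Scaling by library size alone, without TMM, gave Stab1 a log2 fold change of 1.00 (adjusted p = 0.00261), with the median of all tested genes at -0.61 in place of -0.11. Without WT replicate 3 the log2 fold changes were 3.74 for Mrc1 and 1.67 for Stab1, and all 3 receptors were called.

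Scarb1 (SR-BI), Msr1 and Cd36 are receptors for lipoproteins and modified lipids. Scarb1, which binds high-density lipoprotein (ENSMUSG00000037936.15, chromosome 5, 125277087-125341094, minus strand), had 87.7, 83.3 and 247 CPM in WT and 116, 92.6 and 76.1 CPM in IRF8KO. WT replicate 3 was far above the other 5 libraries, which lay close together across both groups. The log2 fold change was -0.55 (SE 0.41, 95% interval -1.45 to 0.34, adjusted p = 0.371, edgeR). Without WT replicate 3 it was 0.18 (adjusted p = 0.537), so the sign came from that library. Scarb1 was therefore expressed in both groups with no direction that held.

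Msr1, the class A scavenger receptor (ENSMUSG00000025044.16, chromosome 8, 39581685-39642673, minus strand), was close to the counting limit, with 4, 6 and 0 counts in WT and 2, 22 and 22 in IRF8KO. The levels were 0.778, 0.425 and 0 CPM against 0.321, 1.97 and 2.39 CPM. IRF8KO replicates 2 and 3 lay above WT and replicate 1 lay among the WT libraries. Without IRF8KO replicate 2 or 3 it was too low for the filter. The log2 fold change was 2.0 (SE 1.14, 95% interval -0.49 to 4.49, adjusted p = 0.241, edgeR), an interval that holds both no difference and a rise larger than that of Mrc1. Cd36, the fatty acid and thrombospondin receptor (ENSMUSG00000002944.15, chromosome 5, 17781690-17888801, minus strand), had 4, 1 and 0 counts in WT and 0 in every IRF8KO library. That set it at least 1.67-fold lower in IRF8KO, but 4 of the 5 counts lay in WT replicate 1, and without that library both groups were under the 3-count limit and no fold can be given. Cd36 was too low for the filter. In the fit without the filter it was not called (adjusted p = 0.234, edgeR).

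The receptors that stayed at 0 are Lyve1, Marco and Cd209f. Lyve1 is the hyaluronan receptor of lymphatic endothelium and of one class of border macrophages (ENSMUSG00000030787.4, chromosome 7, 110850607-110863239). Marco is a class A receptor of alveolar and marginal zone macrophages (ENSMUSG00000026390.7, chromosome 1, 120474538-120505024). Cd209f is a C-type lectin related to DC-SIGN (ENSMUSG00000051906.15, chromosome 8, 4102787-4105835). A count of 0 allows up to 3 counts, which is 0.212 to 0.584 CPM in a single library and 0.113 CPM over the pooled libraries of either group. For comparison, Cd163 stood at 7.48 CPM or more in each IRF8KO library. Reads from stretches shared with another gene cannot be placed: of all 50-base stretches of the Cd209f exons, 29.8% also occur in Cd209g, while Lyve1 and Marco had none. Lyve1 and Marco, whose stretches are all unique, were not detectable at this depth.

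Folr2, folate receptor beta, is a marker of border and other tissue-resident macrophages (ENSMUSG00000032725.10, chromosome 7, 101839988-101857194, minus strand). It had 0, 0 and 2 counts in WT and 0, 1 and 1 in IRF8KO, at or under the counting limit in both groups. The way reads were counted bears on this value. Of its exon length, 63.1% overlaps Gm10602, an antisense gene (101836503-101842771, plus strand), and a count without strand drops reads that fall on both genes. The deposited files also count each strand alone, and the sum of those columns over the Folr2 exons was 6, 34 and 41 in WT and 17, 14 and 13 in IRF8KO. In CPM the sums were 1.17, 2.41 and 5.65 against 2.73, 1.26 and 1.41, so the groups overlapped and the highest library was WT. Their log2 fold change was -0.80 (adjusted p = 0.494, edgeR). Since these libraries keep no strand, the summed reads belong to Folr2 or Gm10602 and cannot be told apart. Folr2 thus was below the count of Mrc1 by either way of counting in every IRF8KO library, and no rise was seen.

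**Figure D2:**
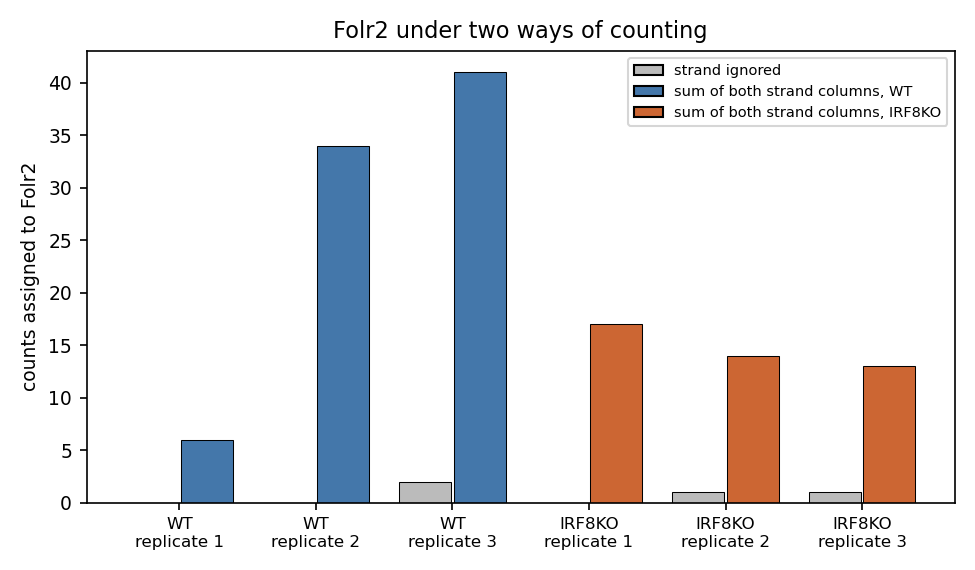
Counts of Folr2 in each library (y axis) when reads shared with the antisense gene are dropped and when both strand columns are summed. Dropping shared reads leaves 0 to 2 counts, and the sums are 6 to 41 in WT and 13 to 17 in IRF8KO.

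Per kilobase of exon, a scale that allows genes to be compared, Stab1 led in both groups, at 67.3 ± 11.3 CPM per kb in WT and 190 ± 30.1 in IRF8KO (SD, n = 3). Scarb1 followed at 16.4 ± 10.98 in WT and 11.2 ± 2.36 in IRF8KO. In WT, Mrc1 was at 0.489 ± 0.0853 CPM per kb, a level above that of 15.3% of tested genes. In IRF8KO it was at 6.17 ± 2.99, above 63.9%. Mrc1 in IRF8KO ran from 3.85 to 9.54 and Scarb1 from 8.96 to 13.7, so these neighbours in the order were not separated by their spread. By the longest annotated transcript in place of merged exons they were: Mrc1 ran from 4.57 to 11.3 and Scarb1 from 24.6 to 37.5 CPM per kb. Cd163 came next at 1.75 ± 0.477 CPM per kb, with its highest library, 2.28, below the lowest of Mrc1. Msr1 was at 0.0632 in WT and 0.246 ± 0.172 in IRF8KO. By either length the order of the IRF8KO means was Stab1, Scarb1, Mrc1, Cd163 and Msr1. In WT, Msr1 at 0.0632 and Cd36 at 0.0788 CPM per kb rested on 10 and 5 counts and were not distinguishable. Folr2 has no place in this order, since its level depends on whether reads shared with Gm10602 are dropped.

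Other receptors of the same kind were read from a list of 41 scavenger and endocytic receptors. Of these, 17 were tested, 5 were higher and 2 lower in IRF8KO, and 10 were not called. Their median log2 fold change was 0.25, beside -0.11 for all genes tested. Another 15 had no count in any library, among them Stab2, the paralog of Stab1, Cd163l1, the paralog of Cd163, and Cd209a to Cd209e. Mrc2, the collagen receptor of the mannose receptor family, moved opposite to Mrc1: it had 129, 467 and 931 counts in WT and 0, 8 and 0 in IRF8KO (log2 fold change -7.69, SE 0.96, adjusted p = 0.000252, edgeR). Its fitted value was -12.0 without IRF8KO replicate 2, the only IRF8KO library with a count, and -6.54 without WT replicate 3, which held the most counts. Colec12, a class A scavenger receptor with a lectin domain, had 0 counts in WT and 11, 80 and 13 in IRF8KO, at least 34.6-fold higher (adjusted p = 0.00681, edgeR). Without IRF8KO replicate 2, which held 80 of these counts and the neutrophil transcripts, the bound was 13.7-fold. Colec12 and Folr1 passed the filter on low counts only through IRF8KO, and Mrc2 only through WT, so, as for Cd163, their being tested already carried a difference. Sorl1, a sorting receptor, rose from 40.6 ± 11 to 113 ± 15.5 CPM (log2 fold change 1.48, adjusted p = 0.00469, edgeR). Scarb2, the lysosomal relative of Scarb1 and Cd36, was at 159 ± 13.2 and 168 ± 12.97 CPM (log2 fold change 0.08, adjusted p = 0.853, edgeR).

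The calls of Mrc2, Colec12 and Sorl1 held without any 1 library, and those of 4 other receptors did not. Cxcl16, a chemokine that also binds oxidised lipoprotein, was at 63.5 ± 14.2 CPM in WT and 164 ± 46.7 in IRF8KO (adjusted p = 0.0107, edgeR). Its adjusted p was 0.05004 to 0.0640 without WT replicate 1, IRF8KO replicate 1 or IRF8KO replicate 3. Folr1, folate receptor alpha and the neighbour of Folr2, had 1, 0 and 0 counts in WT and 11, 12 and 13 in IRF8KO, or 35.9 times as much when pooled (exact binomial 95% interval for counting error 6.04 to 1457) (adjusted p = 0.0299, edgeR). Its adjusted p was 0.0537 to 0.168 without WT replicate 2, IRF8KO replicate 1 or IRF8KO replicate 2. The log2 fold change of Folr1, 4.65, ran from 3.81 to 6.76 when 1 library was left out. Folr2 was not tested in that fit, and the difference between the adjoining genes was not tested. Scarf2 was at 37.0 ± 23.6 CPM in WT and 13.4 ± 2.12 in IRF8KO (adjusted p = 0.0329, edgeR), and 0.0791 to 0.150 without WT replicate 3 or any 1 of the IRF8KO replicates. Its log2 fold change of -1.46 was -0.77 without WT replicate 3, and limma-voom gave it an adjusted p of 0.0517. Lrp1, the large lipoprotein receptor, was at 441 ± 23.6 and 824 ± 74.1 CPM (adjusted p = 0.0417, edgeR), and 0.0832 to 0.177 when any library but WT replicate 3 was left out. Its call was also lost with library size alone (log2 fold change 0.40, adjusted p = 0.197, edgeR), without the filter (0.0916) and with the replicate block (0.0926). Without IRF8KO replicate 1 or 3, 3 receptors of the list were called. Without IRF8KO replicate 3 the genes called overall went from 2109 to 910.

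**Figure D3:**
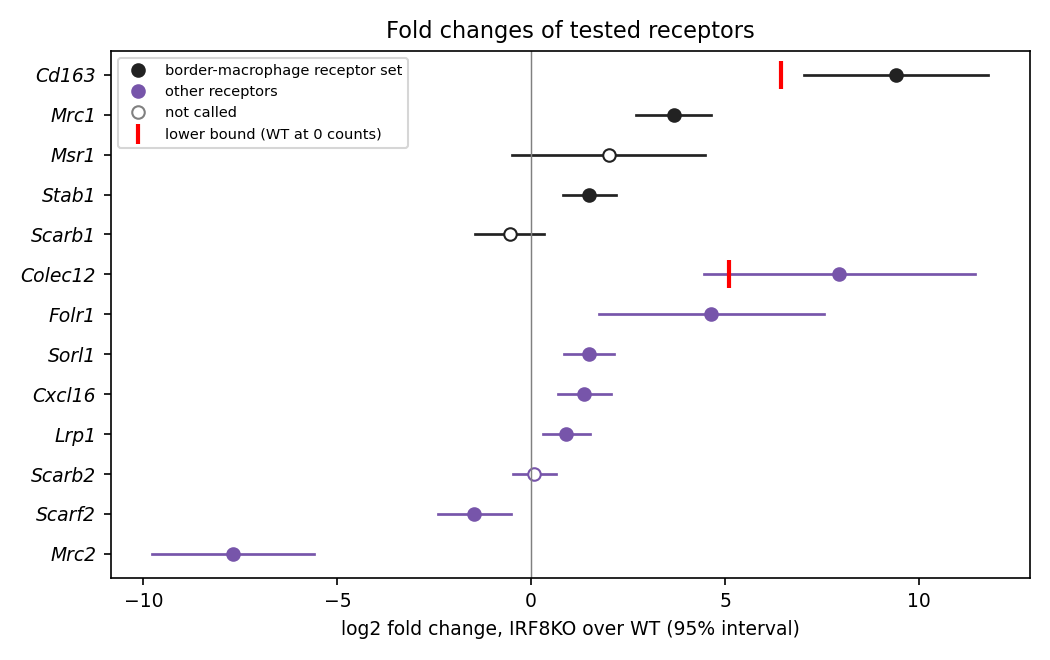
Log2 fold change of IRF8KO over WT with its 95% interval (x axis) for the 5 tested receptors of the 10 (black) and 8 other receptors (purple). Filled circles are called and open ones are not, and red bars mark the lower bounds of Cd163 and Colec12, whose fitted values depend on the prior count because WT is at 0. Mrc2 lies at -7.69 and Mrc1 at 3.67.

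The machinery that carries such receptors into the cell was read from 26 genes of clathrin uptake, all tested, of which 4 were higher and 2 lower (median log2 fold change -0.08). Of all genes tested, 9.64% were called higher and 9.46% lower. Ehd1, a recycling ATPase, rose from 0.371 ± 0.348 to 34.4 ± 4.76 CPM (log2 fold change 6.36, adjusted p = 3.7e-05, edgeR). Dab2, an adaptor for lipoprotein receptors, rose from 9.60 ± 3.56 to 112 ± 56.5 CPM (3.55, adjusted p = 0.000216, edgeR). Picalm, a clathrin assembly adaptor, fell from 38.6 ± 17.9 to 5.20 ± 1.29 CPM (log2 fold change -2.88, adjusted p = 0.00107, edgeR). Hip1 rose as well (log2 fold change 2.91, adjusted p = 0.00127, edgeR). The calls of Clta (log2 fold change 1.03) and Rab5a (-1.89) were lost without WT replicate 1, WT replicate 2, IRF8KO replicate 1 or IRF8KO replicate 3, with edgeR adjusted p of 0.0759 to 0.142 for Clta and 0.0804 to 0.116 for Rab5a. Clta also lost its call with library size alone (log2 fold change 0.52, edgeR adjusted p = 0.0990) and with 1 of the single-strand columns (0.0652). Ehd1 passed the filter only through IRF8KO. Without WT replicate 3, 13 genes of this list were called, while the genes called overall went from 2109 to 4003.

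Of 20 signalling and lipid partners of Cd36, 15 were tested, 2 were higher and 2 lower (median log2 fold change -0.39). Tlr2, a co-receptor of Cd36, rose from 68.1 ± 3.88 to 225 ± 22.7 CPM (log2 fold change 1.73, adjusted p = 0.000943, edgeR). Fyn, a kinase downstream of Cd36, fell from 14.0 ± 2.65 to 1.33 ± 0.449 CPM (log2 fold change -3.40, adjusted p = 0.0010, edgeR) and passed the filter only through WT. Lyn (log2 fold change -1.41) lost its call without WT replicate 2, IRF8KO replicate 1 or IRF8KO replicate 3 (edgeR adjusted p 0.0533 to 0.104). Cd9 (1.02) lost its call when any library but WT replicate 3 was left out (edgeR adjusted p 0.050005 to 0.169). Its call was also lost with library size alone (log2 fold change 0.46, edgeR adjusted p = 0.269), the replicate block (0.0626) and the summed strand columns (0.0502). Without IRF8KO replicate 1 or 3, 2 genes of this list were called. Of 17 genes of folate uptake and use, 15 were tested, none was higher and 1, Gart, was lower (log2 fold change -1.06, adjusted p = 0.0236, edgeR). The median was -0.28, and no gene of the folate list was called without WT replicate 2 or any 1 of the IRF8KO replicates, where the edgeR adjusted p of Gart was 0.0509 to 0.103.

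The receptors rose alongside markers of border macrophages that are not receptors of the 10. Of 13 such markers, 12 were tested, 10 were higher and none was called lower in IRF8KO (median log2 fold change 5.10), and Dab2 is also in the clathrin list. Of the 12, Ms4a7, F13a1, Mgl2, Cd38, Ednrb and Cd4 passed the filter only through IRF8KO, where they are high. The filter thus already favoured that direction. This list was also chosen with earlier results of these data known, so the count is a description. Ccr1, a chemokine receptor, went the other way, with 45, 81 and 36 counts in WT and 11, 25 and 0 in IRF8KO, where every library was below WT in CPM (log2 fold change -2.26, adjusted p = 0.112, edgeR). DESeq2's Wald test, the replicate block and the fit without the filter each called 12 of these markers, 11 of them higher. Summed over the list, the level was 25.0 to 33.7 CPM in WT and 2240 to 2887 CPM in IRF8KO. Pf4, a platelet chemokine also made by border macrophages, was at 1.79 ± 0.935 and 1881 ± 321 CPM. Ms4a7, a membrane protein of such macrophages, was at 0.923 ± 0.267 and 413 ± 147 CPM. Siglec1, a sialic acid receptor, was at 2.005 ± 0.677 and 118 ± 6.45 CPM. In sorted bulk samples, a larger share of cells of another type and more RNA per cell cannot be told apart, so whether border macrophages in the sort carry any of these counts was not tested.

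The 3 IRF8KO libraries did not keep the receptors in 1 ratio to those markers. Relative to the IRF8KO mean, Mrc1 was at 0.625, 1.55 and 0.828 in replicates 1, 2 and 3, with the highest level in replicate 2. Dab2 was at 0.646, 1.58 and 0.773, and Colec12 at 0.512, 2.08 and 0.408, both also highest in replicate 2. Cd163, at 0.908, 1.31 and 0.784, was again highest there. That library is also the one with neutrophil and monocyte transcripts: without Csf3r, the neutrophil markers summed to 5.78, 366 and 2.06 CPM in replicates 1, 2 and 3, and without Nr4a1 the monocyte markers to 0.321, 53.1 and 3.47 CPM. Of the homeostatic microglia markers, P2ry12 was at 24.1, 100 and 21.0 CPM in these replicates and Gpr34 at 28.2, 92.4 and 25.9. Both thus peaked in replicate 2 as well, while Tmem119 was lowest there, at 8912, 4838 and 5923 CPM. Whether any of these differences has a part in the peak of the receptors was not tested. Stab1 was at 1.18, 0.906 and 0.910, and Ms4a7 at 1.40, 0.712 and 0.890, both highest in replicate 1. Pf4 was at 1.03, 0.816 and 1.15, with its lowest level where Mrc1 was highest. The count of Pf4 per count of Mrc1 accordingly was 78.9, 25.3 and 66.7, and that of Mrc1 per count of Cd163 was 2.83, 4.87 and 4.35. These are values of 3 brains and were not tested.

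**Figure D4:**
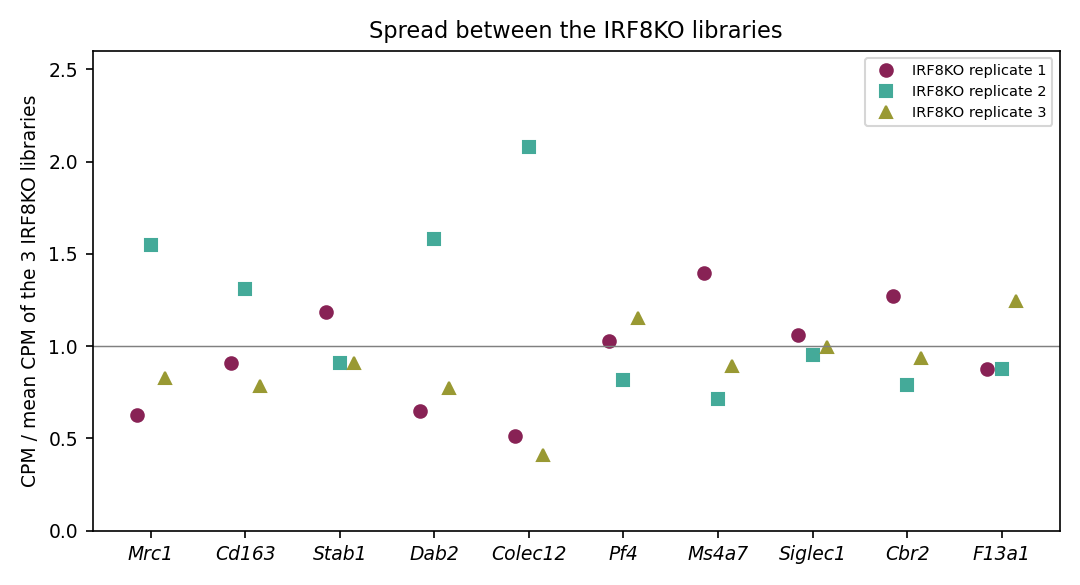
Level of each gene in the 3 IRF8KO libraries divided by its IRF8KO mean (y axis), for the receptors that rose and for border macrophage markers. Mrc1, Dab2 and Colec12 peak in replicate 2, at 1.55, 1.58 and 2.08, while Ms4a7 and Pf4 have their lowest values there.

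Markers of other cells had the following values, and their part in the receptor counts was not tested. Of the genes called in these lists, Cxcr2, Cspg4, Gfap, Slc1a2, S100b and all the neuron markers passed the filter on low counts only through IRF8KO. Siglecf, Sall1, Batf3 and Pecam1 passed it only through WT, so being tested already favoured the direction of each of these genes. Of 12 markers of other tissue macrophages, 2 were tested and 1 was lower, the summed level was 8.27 to 22.3 CPM in WT and 3.69 to 7.48 in IRF8KO (2.07 to 6.94 and 2.78 to 4.88 without Siglecf), and Vsig4, Clec4f and Timd4 were at 0 throughout. Cd5l of that list had 3, 0 and 0 counts in WT and 2, 9 and 40 in IRF8KO and was not tested. Of 14 endothelial markers, which matter because endothelium also makes Stab1, Lyve1 and Mrc1, 3 were tested and 1 was lower. The endothelial sum was 20.3 to 33.4 CPM in WT and 9.47 to 16.6 in IRF8KO, with Cdh5, Tie1, Esam, Slco1a4, Flt4 and Emcn at 0 in IRF8KO. Pecam1, which myeloid cells also make, went from 19.1 to 1.95 CPM in the mean, and without it the sums no longer fell, at 1.93 to 14.6 and 8.51 to 15.0 CPM. No endothelial marker was called higher. Flt1 had 0 counts in WT and 5, 88 and 59 in IRF8KO, Kdr had 35, 129 and 2 against 0, 3 and 0, and neither was tested. Vwf had 0, 2 and 11 against 35, 23 and 41 counts, with no overlap in CPM (log2 fold change 2.84, adjusted p = 0.0859, edgeR). Of 12 fibroblast and mural markers 3 were tested and 1 was higher, with sums of 0.414 to 9.14 and 45.1 to 99.7 CPM, of which Cspg4 made up 66.2 CPM in the IRF8KO mean, while Col1a2, Dcn and Lum were at 0 throughout. Without Cspg4 those sums were 0.138 to 8.37 and 0.868 to 9.47 CPM. Of 12 monocyte markers 1 was tested and none called, with sums of 6.62 to 27.1 and 11.4 to 61.8 CPM, highest in IRF8KO replicate 2, which alone held Chil3, Ly6c2 (31 counts) and, among IRF8KO, Plac8 (52). Of 10 dendritic cell markers 4 were tested, 1 was higher and 1 lower (68.1 to 125 and 80.9 to 103 CPM). Of 12 neutrophil markers 2 were tested and 1, Cxcr2, was higher (651 to 1000 and 871 to 1361 CPM), and Csf3r made up most of these sums in every library. In that library S100a9 had 637 counts, Camp 650 and Ltf 393, against 0 to 2 in every other library.

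Of 12 lymphocyte markers 2 were tested and both were lower (519 to 859 CPM in WT and 29.6 to 40.9 in IRF8KO). Of 10 astrocyte markers 7 were tested, 5 were higher and 1 lower (191 to 222 and 152 to 263 CPM). Without Slc1a3, the one that was lower, the astrocyte sums did not overlap, at 11.4 to 108 CPM in WT and 149 to 255 in IRF8KO. Of 12 neuron markers 5 were tested and 3 were higher (0.779 to 13.9 and 33.7 to 56.9 CPM). Of 10 oligodendrocyte markers 6 were tested and 1 was lower (285 to 700 and 484 to 692 CPM). Without Mbp the oligodendrocyte sums were 209 to 426 and 112 to 147 CPM. The 18 homeostatic microglia markers summed to 72385 to 132191 CPM in WT and 58067 to 82573 in IRF8KO.

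The genes on either side of the receptors that rose were not called: Slc39a12 beside Mrc1, Pex5 beside Cd163, and Nt5dc2 and Nisch beside Stab1. The other neighbours of Mrc1 and Cd163, Tmem236 and Vmn2r27, had no count. Inppl1, on the far side of Folr2 from Folr1, was lower (log2 fold change -1.63, adjusted p = 0.0384, edgeR). Over the 6 libraries and 11040 genes, Cxcr2, a gene of the neutrophil list, was among the profiles most like that of Mrc1 by Pearson's r (0.9958). Those most like Cd163 were Kcnh2 (0.9997) and Gpr171 (0.9994), and those most like Stab1 were P2rx4 (0.9981) and H2afj (0.9969). With 3 libraries on each side of one large difference, r over 6 points is a description only.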

How the data were processed

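RNA-seq libraries of 3 WT and 3 IRF8KO brains were analysed, grouped by the genotype label. The deposited files hold raw whole-number counts per gene in 3 columns (without strand, and for each strand alone), in the layout of STAR; the submitters' processing notes name STAR 2.5.2b, Picard 2.17.11, bcl2fastq, Subread, featureCounts and mm10, and the annotation release is not given in the sources used here. Symbols, positions and exon lengths came from GENCODE M21 (49326 of 49585 identifiers matched). The 10 receptors and the 16 gene lists were chosen with earlier results of these data known.

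The column without strand was filtered with filterByExpr (minimum count 10), scaled by TMM and tested with edgeR 4.0.16 in R 4.3.3 (quasi-likelihood F test, Benjamini-Hochberg adjustment over 11041 genes), with no covariate. Standard errors are the log2 fold change divided by the root of F. The 3 samples of a group are separate brains, and no sample was left out. Levels per kilobase used merged exon length. The text names the members, up to 4 called genes per receptor, clathrin, folate or lipid list and direction, 3 genes per marker list and 2 most similar genes per called member, of which 1 is not reported here; Lrp1, Scarb2 and the marker genes beyond 3 per list were named after their values were seen. Tests were tried on simulated counts. Alternatives were DESeq2 1.42.0, limma-voom 3.58.1, other scalings, filters and count columns, a replicate block and leaving out each library.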

Additional observations from a re-analysis of the deposited data

How the results depend on the processing

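Of 17 alternatives, 11 were settings and 6 left out a library; summing both strand columns was chosen after seeing the data, as were the counts over gene lists under every alternative. Mrc1 and Stab1 were called in all 17, with log2 fold changes of 3.22 to 3.93 and 1.00 to 1.67, and Cd163 in all 16 that tested it. With at least 10 counts in every library Cd163 could not be tested. The highest adjusted p was 0.00606 for Mrc1 and 0.0445, close to the cutoff, for Stab1 (edgeR). Scarb1 was called in none of 17, and Msr1 in none of the 11 that tested it. Leaving out 1 library gave Scarb1 log2 fold changes of -0.83 to 0.18, positive without WT replicate 3. Leaving out 1 library gave 910 to 4003 genes called, beside 2109, the ends being without IRF8KO replicate 3 and without WT replicate 3 (over 1.5 times away in all but IRF8KO replicate 2), and 1863 to 2696 under the other settings. It gave 3 to 9 called genes for other receptors, 4 to 13 for clathrin uptake, 2 to 5 for the partners of Cd36, 9 to 10 for border macrophage markers and 0 to 2 for folate. The folate count of 1 became 7 with library size alone, 3 with at least 10 counts in every library, 3 with column 4 counts, and 2 with DESeq2's Wald test, limma-voom or both strand columns; the cause was not tested. With at least 10 counts in every library 3 border macrophage markers were called, since fewer were tested. With library size alone 25.4% of called genes were higher, beside 50.5%. Stab1 in IRF8KO was 244 CPM per kb by its longest transcript and 158 with library size alone, and Scarb1 30.7 by its longest transcript, in each case by construction of the unit.

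The groups share replicate numbers, but these come from different brains, and deviations of same-numbered libraries from their group means correlated at -0.26, 0.33 and 0.11. Such deviations sum to 0 over the 3 libraries of a group, so these values cannot show whether same-numbered libraries were handled together. The fit with the replicate block called 2353 genes, the same count of 3 members and 2 folate genes. The highest correlation of WT replicate 1 was with IRF8KO replicate 2. Msr1 and Cd36 rest on few counts, a count of 0 allows up to 3, and the count of Folr2 changes with how shared reads are treated.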
